A study of Saccharomyces cerevisiae with 4 samples.

Results

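The RNA exosome genes of budding yeast were followed in sporulating cells and after the return of these cells to rich medium. The set held 10 genes, chosen by their known place in the complex and matched by symbol or synonym to the ORF names printed with each array spot, out of 6218 ORFs on the array. All 10 were found, each with 2 spots kept on all 4 arrays, and no annotated gene of the RefSeq table overlapped any of them. 9 genes encode the core shared by the nuclear and cytoplasmic complexes, namely the cap subunits RRP4, RRP40 and CSL4, the ring subunits SKI6, RRP42, RRP43, RRP45 and RRP46, and the nuclease DIS3. The remaining gene, RRP6, encodes a nuclease found in the nuclear complex alone.

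The exosome degrades and trims RNA from its 3' end. Its ring subunits resemble the bacterial exonuclease RNase PH but have no catalytic activity in yeast, the cap subunits carry RNA-binding domains and sit over the entrance to the central channel, and DIS3 at the far end carries the exonuclease and endonuclease sites. Rrp6 trims the ends of rRNA and snoRNA precursors and removes unstable noncoding transcripts in the nucleus, and in budding yeast its protein is known to be lost as cells pass through meiosis. The cytoplasmic complex degrades mRNA together with the Ski proteins.

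The samples were diploid SK1 cells of 1 strain, GF18, in which the promoter of the middle sporulation gene SPS4 drives NDT80, the regulator of middle sporulation genes. RNA was taken after 5.5 h in sporulation medium (SPM) and at 0, 20 and 40 min after part of that culture had been spun down and put into rich glucose medium (YPD). On each array this RNA carried Cy5 and was hybridised beside a Cy3-labelled reference, the same RNA on every array, from wild-type diploid SK1 cells (NKY1551) growing in acetate medium (YPA). Each group was a single array, so no difference between conditions had a replicate check and no p-value was calculated. The SD given after a value is that of the 2 spots of a gene (n = 2), unless stated otherwise. It leaves out the error of the slide, the labelling, the RNA preparation and the culture. There was no SPM sample later than 5.5 h, so medium, handling during the transfer and elapsed time cannot be told apart, and the reference differed from the samples in strain, medium and stage together. The 3 changes after transfer share the 5.5 h array as their baseline. All log2 ratios are relative to the median gene of the same array, and in such bulk samples fewer cells carrying a transcript and less transcript per cell cannot be told apart.

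Meiotic genes were used to check that sample and reference were not exchanged, and not to check the order of the time labels. The log2 ratio of NDT80 was 6.79 at 5.5 h and 5.62 at 40 min, that of SPS4 was 7.62 and 6.69, and that of IME2, a meiosis-specific kinase gene, was 5.78 and 2.62. In the sample channel these 3 genes were above background on all 4 arrays, and in the reference channel on none of them. Background here means the 95th percentile of 236 buffer-only spots, and a gene counted as above it when at least 1 of its spots exceeded that value. Between 51.9% and 55.8% of all genes passed this limit in Cy5 and between 69.6% and 75.5% in Cy3, and the duplicate spots correlated across genes at r = 0.975 to 0.982.

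The exosome genes were mostly dim. In the sample channel 6 of the 10 were above background at 5.5 h and 9, 8 and 7 of them on the YPD arrays in order of time, and in the reference channel 9, 7, 7 and 7 were. Only CSL4, SKI6, RRP43, RRP45 and RRP6 passed it in both channels of every array. RRP43 was the exception in brightness, with a Cy5 intensity over local background of 30812 at 5.5 h and of 22640, 25759 and 23022 at 0, 20 and 40 min. For DIS3 the intensity was 274, 247, 196 and 319 on these arrays, below the background limits of 1316, 863, 1022 and 2035. Spot brightness also depends on the printed probe, so these intensities do not rank the transcripts.

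**Figure D1:**
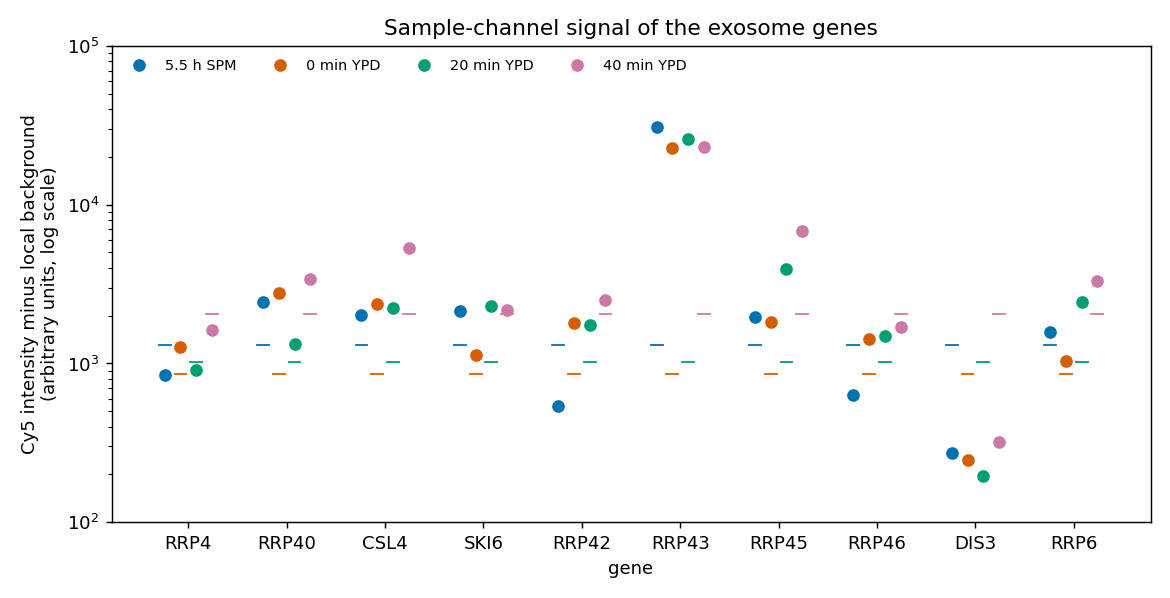
Cy5 (sample) intensity minus local background, in arbitrary units on a log scale, for the 10 exosome genes. Points are means of 2 spots on each of the 4 arrays and short lines mark the lowest intensity counted as above background on that array. RRP43 lies above all lines, DIS3 below all of them, and RRP42 and RRP46 lie below the line at 5.5 h.

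Where a gene was not above background on one side of a comparison its log2 change is uncertain, and a lower bound was calculated. The bound was the brighter value over the higher of the dim value itself and the lowest signal counted as above background. Between arrays both values came from the sample channel. Against the reference they came from the sample and reference channels of the same array. A gene was counted as changed when its mean and both of its spots passed 2-fold in the same direction.

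At 5.5 h in SPM the genes were spread from slightly below the YPA reference to almost 3-fold above it. RRP40, RRP43 and RRP45 were at least 2-fold higher than the reference, 3 of 10 genes beside 21.7% of all genes. None of the 10 was 2-fold lower, beside 18.1% of all genes. The median log2 ratio of the 9 core genes was 0.51, and that of all genes was 0.01. The median rests partly on dim genes, because RRP4, RRP42 and RRP46 were above background in the reference channel alone and DIS3 in neither. Over the 5 core genes measured in both channels the median was 1.20. RRP4, RRP42 and RRP46 were left out there for low sample signal, so the selection itself raises this median. MTR3, which encodes the sixth subunit of the ring and was not part of the set, stood at 1.54 ± 0.04.

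The cap genes had ratios in the same order over the arrays. The log2 ratio of RRP4 (YHR069C) was -0.13 ± 0.21 at 5.5 h, and 1.25 ± 0.03, 0.70 ± 0.08 and 0.51 ± 0.05 at 0, 20 and 40 min in YPD. RRP40 (YOL142W) stood at 1.49 ± 0.22, 2.67 ± 0.17, 1.98 ± 0.18 and 1.88 ± 0.01 on the same arrays. CSL4 (YNL232W), whose product links the cap to the Ski complex by way of Ski7, stood at 0.65 ± 0.22, 1.65 ± 0.28, 1.22 ± 0.11 and 1.17 ± 0.16. In all 3 genes the log2 ratio was lowest in SPM, highest at 0 min and intermediate at 20 and 40 min, although the 20 and 40 min values of RRP40 and CSL4 differed by less than the spread of their spots. The order did not hold under every setting. With loess inside each print block CSL4 was higher at 40 min than at 0 min, with log2 changes of 0.72 and 0.69, and so it was in the Cy5 channel alone, with 1.04 and 0.82. In that channel RRP40 was lowest at 20 min and not in SPM. RRP40 also lost the order under each other normalisation, for example at 0.49 after 20 min and 0.62 after 40 min with the array median. RRP4 lost it with print-block loess, at 0.67 and 1.09 at these times. It lost it too with the authors' steps and in their table, at 0.76 and 0.82 in the table.

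Against 5.5 h, the log2 change at 0 min was 1.38 ± 0.23 for RRP4, 1.18 ± 0.05 for RRP40 and 1.00 ± 0.50 for CSL4. RRP4 and RRP40 passed 2-fold in both spots. In CSL4 1 spot gave 1.35 and the other 0.64, so the gene was not counted. RRP4 was not above background in the sample at 5.5 h, which leaves a bound of at least 1.57-fold for its change, and it was not above background at 20 and 40 min either. RRP40 was measured in the sample channel on every array and reached 0.91 in that channel, short of 2-fold. At 20 min the ratio of RRP40 gave a log2 change of 0.49 ± 0.04 while its Cy5 channel gave -0.51, and at 40 min 0.39 ± 0.22 beside 0.00. Its reference signal, which came from 1 RNA, had a range of 1.02 in log2 over the 4 arrays and was above background at 5.5 h only, so the sign of its change at 20 min depends on the channel read.

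The ring genes did not share a pattern. SKI6 (YGR195W), the yeast Rrp41, gave log2 ratios of 0.51 ± 0.10, 0.35 ± 0.23, 1.07 ± 0.14 and 0.30 ± 0.15 at 5.5 h, 0, 20 and 40 min. RRP45 (YDR280W), whose product forms a dimer with Rrp41 in the ring, gave 1.20 ± 0.03, 1.85 ± 0.15, 2.52 ± 0.15 and 2.16 ± 0.13. Both were highest at 20 min. Against 5.5 h, RRP45 changed by 0.65 ± 0.17, 1.32 ± 0.18 and 0.96 ± 0.15 at the 3 times, with the 20 min value past 2-fold in both spots and both samples above background. That of SKI6 was -0.16 ± 0.33, 0.56 ± 0.24 and -0.21 ± 0.05, never past 2-fold.

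RRP42 (YDL111C), the partner of MTR3 in the ring, was low in SPM and higher on the YPD arrays. It stood at -0.53 ± 0.65 in SPM and at 1.70 ± 0.23, 1.45 ± 0.29 and 0.63 ± 0.13 on the YPD arrays. Its log2 changes were 2.22 ± 0.42, 1.98 ± 0.37 and 1.16 ± 0.53. The first 2 of these passed in both spots, and at 40 min 1 spot gave 0.79. The size of these changes is uncertain. Its sample signal at 5.5 h was below background, with its spots at -0.07 and -0.99, and the bounds were at least 2.25-fold, 1.70-fold and 1.39-fold. MTR3 itself stood at 1.54, 1.40, 1.28 and 1.06, with changes of -0.15 ± 0.13, -0.26 ± 0.14 and -0.48 ± 0.06.

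RRP43 (YCR035C) and RRP46 (YGR095C) encode the remaining dimer of the ring. RRP43 had log2 ratios of 1.41 ± 0.09, 1.60 ± 0.02, 0.24 ± 0.03 and 0.49 ± 0.03, so it was high at 5.5 h and 0 min and lower at both later times. RRP46 had 0.07 ± 0.05, 1.72 ± 0.32, 0.99 ± 0.38 and 1.29 ± 0.09, lowest at 5.5 h. RRP46 was higher by 1.65 ± 0.27 at 0 min, with a bound of at least 1.77-fold. At 20 min its spots differed, at 0.69 and 1.16, and at 40 min its value of 1.22 ± 0.04 passed 2-fold although its sample signal was not above background on either array.

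RRP43 was the only one of the 10 genes past 2-fold in the downward direction in any comparison with 5.5 h. Its log2 changes were 0.18 ± 0.11, -1.17 ± 0.06 and -0.93 ± 0.12 after 0, 20 and 40 min. The value at 20 min moved with the normalisation. It was -0.26 when each array was centred on its median without loess, -0.90 with loess inside each print block, -0.43 with the authors' own steps, -0.42 in their deposited table and -0.23 in the Cy5 channel alone, so it passed 2-fold in none of these. At 40 min the value lay between -1.01 and -0.39 over all settings. The direction at both times was the same in all of them, and the size of the decrease at 20 min is not settled by these data.

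DIS3 (YOL021C) could not be followed. Its log2 ratios of 0.21 ± 0.15, 0.17 ± 0.04, -0.04 ± 0.16 and 0.21 ± 0.21 come from spots that were not above background in either channel on any array, and no fold change is given for it. The shared catalytic subunit was therefore not detectable at this signal.

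**Figure D2:**
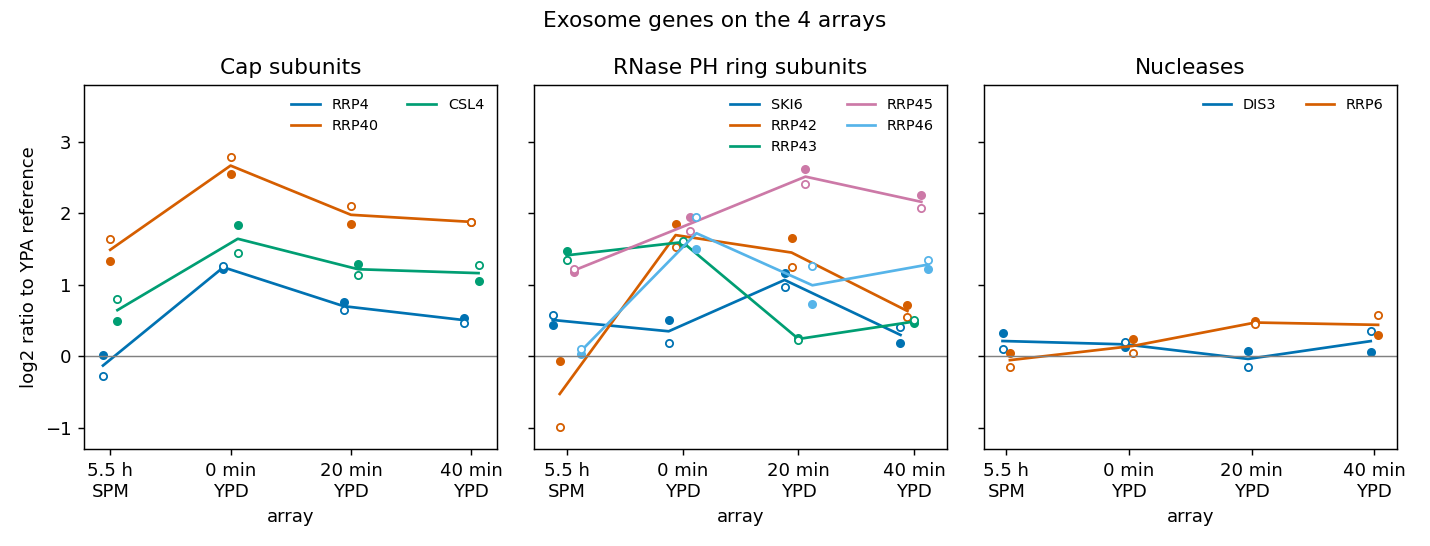
Log2 ratio of sample to YPA reference for the cap genes (left), ring genes (middle) and nuclease genes (right) on the 4 arrays. Lines join means of the 2 spots, drawn as filled and open circles. RRP4, RRP40 and CSL4 peak at 0 min, RRP45 and SKI6 at 20 min, and RRP43 is lower at 20 than at 0 min, while DIS3 and RRP6 lie between -0.05 and 0.47.

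At 0 min 4 of the 10 genes, RRP4, RRP40, RRP42 and RRP46, were at least 2-fold higher than at 5.5 h, beside 7.59% of all genes, and none was lower, beside 4.13%. At 20 min 2 genes, RRP42 and RRP45, were higher, beside 11.5% of all genes, and 1, RRP43, was lower, beside 15.8%. At 40 min 1 gene, RRP46, was higher, beside 13.9%, and none was lower, beside 19.8%. The count at 0 min rests on dim genes. With each gene that was not above background on one side set to its bound, 2 genes stayed past 2-fold at 0 min, namely RRP40 and RRP42, then 1 at 20 min and none at 40 min. Of these RRP40 passed by its ratio only, since its reference signal at 0 min was not above background and its Cy5 channel, at 0.91, did not reach 2-fold. Among the 5 genes that both channels of every array detected, none was higher by 2-fold at 0 min.

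At 0, 20 and 40 min the 9 core genes had a median log2 change of 1.00, 0.57 and 0.52, and all genes one of -0.16, -0.26 and -0.22. The core median thus stood 1.16, 0.83 and 0.74 above that of all genes. At the bounds the core medians were 0.74, 0.56 and 0.43, with the genes that allow no fold left out. The spread among the core genes was wide, from -0.16 for SKI6 to 2.22 for RRP42 at 0 min, from -1.17 for RRP43 to 1.98 for RRP42 at 20 min, and from -0.93 for RRP43 to 1.22 for RRP46 at 40 min. The upper ends belong to genes whose sample signal was below background at 5.5 h.

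Between the YPD arrays the median log2 change of the 9 core genes was -0.43 from 0 to 20 min and -0.10 from 20 to 40 min. The medians of all genes were -0.12 and -0.02. From 0 to 20 min none of the 10 genes was higher by 2-fold, beside 6.2% of all genes, and RRP43 alone was lower, at -1.36 ± 0.05 on the log2 scale, beside 7.51%. Like its change from 5.5 h, this step of RRP43 moved with the normalisation. It was -0.45 with the array median, -0.90 with loess inside each print block, -0.39 with the authors' steps, -0.41 in their table and -0.13 in the Cy5 channel alone, short of 2-fold in each. From 20 to 40 min no exosome gene passed 2-fold in either direction, beside 4.05% and 1.58%. The step from 0 to 20 min was 0.72 ± 0.09 for SKI6 and 0.66 ± 0.01 for RRP45. It was -0.73 ± 0.06 for RRP46, -0.69 ± 0.01 for RRP40 and -0.54 ± 0.10 for RRP4, none of them 2-fold.

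Of the 10 genes 6 had their highest ratio at 0 min, against 17.8% of all genes, and 7 had their lowest ratio at 5.5 h, against 24.1%. RRP4, RRP40, CSL4 and RRP42 were ordered from 0 min through 20 and 40 min down to 5.5 h, an order held by 2.69% of all genes. The exact order was the less stable of these descriptions. Between 1 and 3 genes held it under the other normalisations, in the authors' table and in the Cy5 channel, whereas 5 or 6 were highest at 0 min under each of these, with DIS3 among them in some. These counts include dim genes. Of the genes detected in both channels of every array, CSL4 and RRP43 alone were highest at 0 min, while CSL4, RRP45 and RRP6 were lowest at 5.5 h. With print-block loess or in the Cy5 channel neither CSL4 nor RRP43 was highest at 0 min.

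Relative to the reference, 7 of the 10 genes were at least 2-fold higher at 0 min, beside 21.5% of all genes, all of them core genes. At 20 min these were RRP40, CSL4, RRP42 and RRP45, 4 of 10 beside 22.3%, and at 40 min RRP40, CSL4, RRP45 and RRP46, 4 of 10 beside 19.7%. RRP46 was below background in both channels at 40 min, which leaves 3 genes there at the bounds. RRP40 and RRP45 were the members higher than the reference by this rule on all 4 arrays. None was 2-fold lower on any of the YPD arrays, beside 19.0%, 20.2% and 17.7% of all genes.

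RRP6 (YOR001W) stayed near the reference throughout. Its log2 ratio was -0.05 ± 0.14 in SPM, 0.14 ± 0.14 on transfer, 0.47 ± 0.03 after 20 min and 0.44 ± 0.19 after 40 min, measured in both channels each time. Its changes against 5.5 h were 0.20 ± 0.00, 0.53 ± 0.10 and 0.49 ± 0.33, below 2-fold each time. At 0 min the change lay between -0.19 and 0.37 over all settings, so its sign is not settled. In the Cy5 channel alone the changes were 0.04, 0.98 and 0.61, so the 20 min value was larger there. The 2 low arrays were 5.5 h and 0 min and the 2 high ones 20 and 40 min, without overlap of their spots.

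Against the shared core, RRP6 differed most at 0 min. The log2 ratio of RRP6 minus the median of the 9 core genes was -0.56 ± 0.23 in SPM and -1.50 ± 0.10, -0.60 ± 0.01 and -0.19 ± 0.32 on the YPD arrays in order of time. For such differences the SD is between the value from first spots alone and that from second spots alone. It can understate the error, since at 20 min these were -0.67 and -0.69, both outside -0.60 ± 0.01. It also leaves out the spread among core genes, an SD of 0.80 at 20 min. Of the 9 core genes, 7 had a higher ratio than RRP6 at 5.5 h, 9 at 0 min and 7 at both 20 and 40 min. Among those above background in the sample these were all 5 at 5.5 h, all 8 at 0 min, 6 of 7 at 20 min and 5 of 6 at 40 min. The limit on sample signal itself leaves out genes low in the sample, so it favours higher ratios. Over the core genes detected in both channels of every array the difference in ratio at 0 min was -1.48. As a change against 5.5 h the difference was -0.80 ± 0.40, -0.05 ± 0.29 and -0.02 ± 0.38 at the 3 times, so only the first exceeded its spot SD. In the step from 0 to 20 min RRP6 stood 0.76 ± 0.02 above the core median, at 0.33 against -0.43, but only 0.21 above the median of the core genes detected in both channels of every array. These differences have limits. Among the genes detected in both channels throughout, the difference in change at 0 min was -0.22, and in the Cy5 channel the difference at 20 min was 0.50.

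**Figure D3:**
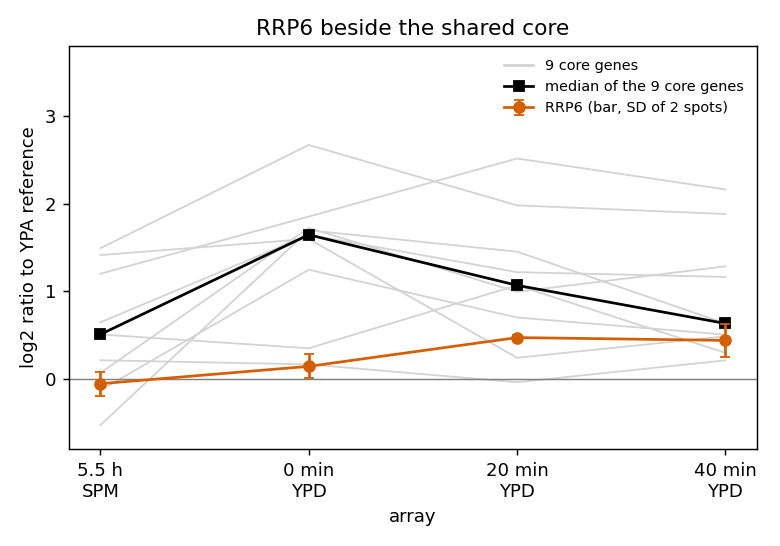
Log2 ratio to the YPA reference of RRP6 (circles, bars are the SD of 2 spots), of each of the 9 core genes (grey) and of the core median (squares) on the 4 arrays. The core median peaks at 1.65 at 0 min, where RRP6 is at 0.14, and falls to 0.63 at 40 min, where RRP6 is at 0.44.

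The reference channel gave a measure of array error, since its RNA was the same throughout. The SD of the normalised Cy3 log2 intensity over the 4 arrays had a median of 0.216 for the 10 genes and 0.192 for all genes, and reached 0.424 in RRP40 and 0.367 in RRP46. That of the Cy5 intensity had a median of 0.511 and 0.490. Among the 10 genes the Cy5 SD ran from 0.118 in DIS3 to 1.12 in RRP42, both of which include signals below background. The range of the log2 ratio over the arrays had a median of 1.25 in the exosome genes, near the 1.09 of all genes.

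The proteins that work with Rrp6 in the nucleus differed from each other. LRP1 (YHR081W), which encodes the partner that stabilises Rrp6, stood at 2.40 ± 0.21, 2.09 ± 0.49, 2.86 ± 0.10 and 2.50 ± 0.08, high on all arrays, and its changes of -0.31, 0.46 and 0.11 did not pass 2-fold. MPP6 (YNR024W), an RNA-binding cofactor of the nuclear exosome, stood at 0.56 ± 0.07, 1.69 ± 0.30, 2.04 ± 0.18 and 1.52 ± 0.19. It was below background in the sample at 5.5 h, and its change passed 2-fold at 20 min, at 1.48 ± 0.11, with a bound of at least 2.76-fold.

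MTR4 (YJL050W), the helicase that feeds RNA to the nuclear exosome, had log2 ratios of -1.76 ± 0.04, -0.87 ± 0.06, 0.78 ± 0.09 and 1.12 ± 0.17, higher on each later array. The sample signal was below background at 5.5 h and 0 min, so the size of its changes is uncertain. These were 0.90 ± 0.10, 2.55 ± 0.13 and 2.89 ± 0.21, with bounds of at least 1.18-fold and 2.11-fold for the last 2.

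The other TRAMP genes encode the poly(A) polymerases PAP2 and TRF5 and the zinc-knuckle proteins AIR1 and AIR2, which tag nuclear RNA for the exosome. At 0, 20 and 40 min the change was 0.66, 0.87 and 0.87 for PAP2, 0.90, 1.27 and 0.92 for TRF5, -0.01, -0.04 and 0.29 for AIR1 and 0.63, 0.30 and 0.50 for AIR2. Of these TRF5 alone passed 2-fold, at 20 min, with its sample signal below background. With MTR4, 0, 2 and 1 of the 5 TRAMP genes were higher at 0, 20 and 40 min and none was lower.

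None of the 4 genes of the cytoplasmic Ski pathway passed 2-fold at any time. SKI2, the helicase of the complex, changed by 0.96 ± 0.61, 0.12 ± 0.66 and 0.62 ± 0.43, each with wide spots. SKI3, a scaffold protein, was at -0.14, 0.38 and 0.37 and SKI8, a WD-repeat protein with a second role in meiotic recombination, at 0.19, -0.63 and -0.92. SKI7, which bridges the Ski complex and the exosome, was at -0.46, -0.80 and -0.69. SKI3, SKI8 and SKI7 were below background in the sample on 3 or 4 arrays, and only SKI2 was measured on all.

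The termination factors NRD1, NAB3 and SEN1, which hand short nuclear transcripts to the exosome, were bright enough to be measured throughout. SEN1 (YLR430W), a helicase gene, stood at -1.79 ± 0.10, -2.79 ± 0.02, -3.68 ± 0.10 and -3.27 ± 0.15, far below the reference on all arrays. It was lower than at 5.5 h by 2-fold at 20 min, at -1.90 ± 0.00, and at 40 min, at -1.48 ± 0.05, and did not quite reach 2-fold at 0 min. NRD1, an RNA-binding protein gene, was at 0.21, -0.71 and -0.63 and NAB3, its partner, at 0.07, -0.51 and -0.20, within 2-fold.

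Among 6 further genes for ITS2 cleavage and 3' trimming, 1, 0 and 0 were higher and 0, 0 and 1 lower at 0, 20 and 40 min. RNH70 (YGR276C), a 3' exonuclease gene, stood at 2.82 ± 0.20, 2.14 ± 0.28, 1.97 ± 0.19 and 0.77 ± 0.01, and at 40 min its change was -2.05 ± 0.19, at least 2.91-fold lower. The gene higher at 0 min was REX2, another 3' exonuclease gene named after its value was seen, at 1.70 ± 0.04.

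The genes of decay from the 5' end and of poly(A) removal mostly stayed within 2-fold. Of 9 genes for 5'-3' exonucleases and decapping, 0, 1 and 2 were higher and 1, 1 and 0 lower at the 3 times. Those higher at 40 min were LSM1, a subunit of the cytoplasmic Lsm ring, at 1.08 ± 0.06 with its sample signal at 5.5 h below background, and RAI1, the partner of the nuclear exonuclease Rat1, at 1.28 ± 0.02 with its sample signal below background. RAI1 was also the gene higher at 20 min, at 1.39 ± 0.27. The lowest value at 0 min was that of DCP2, at -1.10, and the lower gene at 20 min was DHH1, at -1.32 ± 0.10. Both were named after their values were seen. The sample signal of the gene counted as lower at 0 min was below background on both arrays compared. That of DHH1 was below background at 20 min, where the bound was at least 2.12-fold lower. The deadenylase genes CCR4, POP2, PAN2 and PAN3 did not pass 2-fold at any time, with changes at 40 min of -0.08, -0.17, 0.42 and 0.12.

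The core proteins of the snoRNPs, the particles whose RNAs are trimmed by the nuclear exosome, gave a scale for these values. All 7 of those matched on the array were at least 2-fold higher than at 5.5 h at 0, 20 and 40 min, with median log2 changes of 3.14, 3.24 and 2.95. GAR1 was below background in both channels at 5.5 h and 0 min. With the bounds applied as for the exosome genes, 6 of the 7 passed at 0 min and all 7 at both later times, with medians of 3.33, 3.24 and 3.12. NOP1, the box C/D methylase, was below background in the sample at 5.5 h, and its changes of 4.15 ± 0.52, 4.65 ± 0.45 and 4.28 ± 0.36 have bounds of at least 11.5-fold, 10.5-fold and 11.7-fold. NOP58, a box C/D scaffold protein measured on all arrays, changed by 4.06 ± 0.25, 3.51 ± 0.39 and 3.84 ± 0.32. At 5.5 h 4 of the 7 were 2-fold lower than the reference, and 3 of them at the bounds. At 0 min the core median of the exosome was 1.00, or 0.74 at the bounds, beside the snoRNP medians of 3.14 and 3.33, and the range of the log2 ratio over the arrays had a median of 3.24 in the snoRNP genes and 1.25 in the exosome genes. No test of this difference was possible with single arrays.

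**Figure D4:**
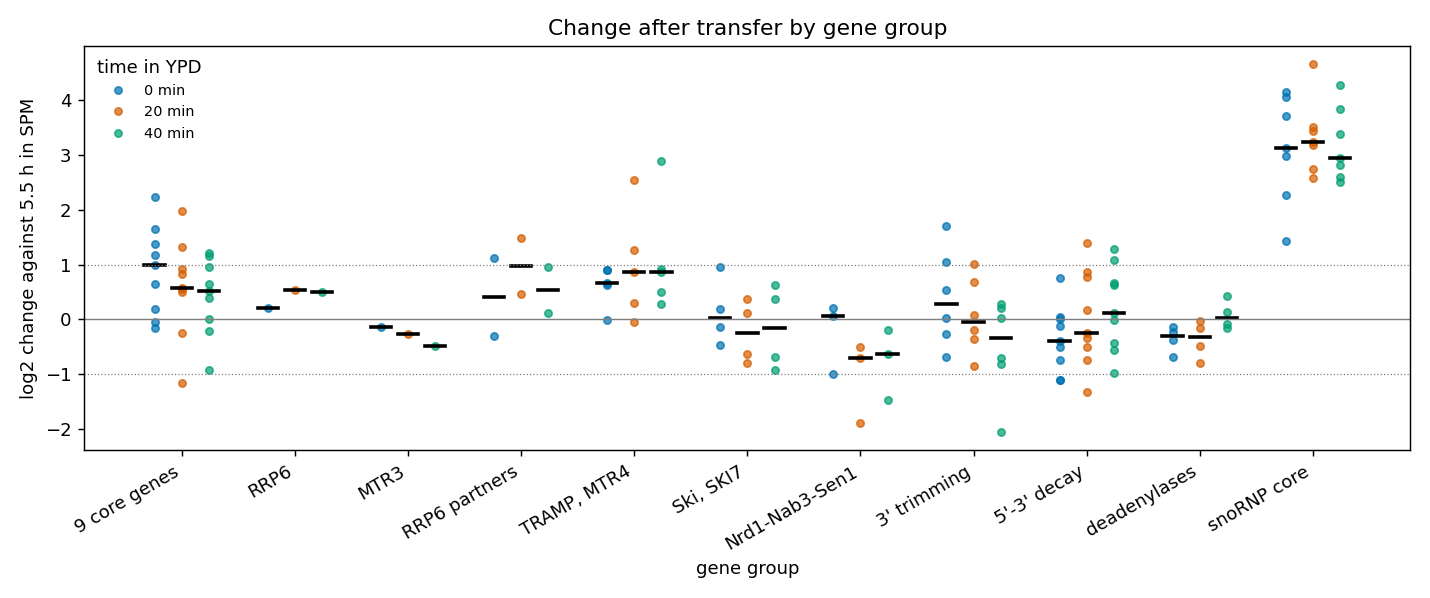
Log2 change against 5.5 h in SPM at 0, 20 and 40 min in YPD for the exosome genes and the companion gene groups. Points are genes (means of 2 spots), black bars are group medians and dotted lines mark 2-fold. The 9 core genes have medians of 1.00, 0.57 and 0.52, the snoRNP core proteins 3.14, 3.24 and 2.95.

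The genes nearest to RRP6 in pattern were sought by Euclidean distance over the 4 log2 ratios, among 1983 genes that were detected in both channels of every array. They were BEM1, a polarity scaffold gene, at a distance of 0.30, YEL076C-A at 0.31, RGL1 at 0.32, BCK2 at 0.37 and ISM1, which encodes the mitochondrial isoleucyl-tRNA synthetase, at 0.37. Those nearest to the core median were SUR2, a sphingolipid hydroxylase gene, at 0.19, HSL7 at 0.47, UTR4 at 0.48, YPR064W at 0.49 and MTH1, a regulator of glucose transporter genes, at 0.49. No exosome gene or companion gene was among either set of 5. Of the exosome genes only CSL4, SKI6, RRP43, RRP45 and RRP6 passed this filter, so the dimmer members and companion genes could not appear.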

How the data were processed

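Total RNA of 4 samples, 1 per group, was measured on 2-colour arrays of PCR products with 48 print blocks and 2 spots per ORF. The authors deposited the scanner output, which per the file headers gives linear spot intensity and local background intensity in each channel, not normalized. They also deposited a table of log2 ratios, made by background subtraction, a floor at the buffer-spot mean, array-median centring and removal of poor spots. Its columns have a median of 0, and their steps repeated on the scanner data matched it at r = 0.994 to 0.998, which fixed its direction as Cy5 (sample) over Cy3 (reference), the order of the dye fields. The text of the labelling protocol gives the opposite order. No dye swap was made.

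Intensities were corrected with normexp (offset 50) in limma 3.58.1 (R 4.3.3), normalized by global loess with 236 buffer and 384 Arabidopsis control spots at weight 0, centred on the median gene spot and averaged over spots. On the 0 min array 17 spots were ignored, none of them of an exosome gene. The bounds, and the changes in the Cy5 channel given for RRP40 and RRP6, used channels after Aquantile normalization, and the alternative from the Cy5 channel alone was quantile-normalized between arrays. The steps were tested on simulated data. Of the ORF names, 5663 matched the RefSeq table and 555 did not.

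The 10 genes and the companion lists were chosen with earlier results of these data known. The text names all 10 genes, every gene of lists of 5 or fewer, the 2 largest changes per direction at 40 min past 2-fold in longer lists, and the 5 nearest genes in pattern. NOP10, on the snoRNP list, was not matched. A search for promoter motifs was planned and was not run. The alternatives were other normalisations, the authors' steps and table, single spots, the Cy5 channel and a filter on dim genes.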

Additional observations from a re-analysis of the deposited data

How the results depend on the processing

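Each count, core median and difference of RRP6 from the core was recalculated under other settings. Of 136 such values 104 moved by less than their spread or, for counts, stayed within 1.5 times, and 32 moved further. A reversal was defined only for medians and differences of at least 2-fold in the main setting, and none reached this, so none could be counted. The sign of RRP6 minus the core did change. It went from -0.05 to 0.50 at 20 min in the Cy5 channel, and from -0.02 to 0.34 at 40 min with the filter on dim genes. No paired analysis was possible because each group held 1 array, and for the same reason no replicate could be left out. With the core reduced to genes above background on all arrays, the core median was 0.92 at 5.5 h, 0.42 at 0 min and 0.15 at 40 min, RRP6 minus the core was -0.98 at 5.5 h and -0.22 at 0 min, and 0, 1 and 0 genes were higher at 0, 20 and 40 min. With dim genes at their bounds, a setting chosen after seeing the data, the core median was 1.20 at 5.5 h and 0.74 at 0 min, and 2, 1 and 0 genes were higher. These medians leave out the core genes that allow no fold, 4 of 9 at 5.5 h and 1 of 9 at 0 min. The 1 lower gene at 20 min became 0 under the array median, print-block loess, the authors' steps, their table and the Cy5 channel alone, and the 1 higher gene at 40 min became 3 under the first 4 of these and 2 in the Cy5 channel. The core median was 0.69 at 0 min with print-block loess and 0.77 at 20 min with the array median. In the Cy5 channel RRP6 minus the core at 20 min was 0.50. From the first spots alone the core median was 1.21 at 0 min and 0.73 at 20 min, with 2 genes higher and 1 lower at 40 min. From the second spots it was 0.64 at 0 min, with 2 genes higher at 40 min. The settings applied to the step from 0 to 20 min were also added after seeing the data. The cause of these shifts was not tested. Signal over background limited DIS3 on all arrays and RRP4, RRP42 and RRP46 at 5.5 h.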
